A study of Gallus gallus with 8 samples.

Results

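Accessible chromatin of adult red blood cells (aRBC) and of embryonic red blood cells (eRBC) of the chicken was compared site by site. The sites are the peaks of the 2 deposited ATAC-seq lists, 11395 peaks for adult and 12558 for embryonic red blood cells, or 23953 of the 53397 peaks in the 4 lists of the series. A peak was called kept where it overlapped a peak of the other list by at least 1 bp, gained where an adult peak overlapped no embryonic peak, and lost where an embryonic peak overlapped no adult peak. The adult cells were primary red blood cells of hens aged 28 to 38 weeks, and the embryonic cells were primary red blood cells taken at embryonic day 10. All cells are labelled wild type, and each cell type has 2 samples. The hens are female by name, while the sex of the embryos is not in the labels, so age and sex cannot be told apart where the sex chromosomes are concerned. The lists of the HD3 erythroblast line, which grows in culture as immature red cells, and of primary fibroblasts entered only as further readouts. The HD3 erythroblast list has 11763 peaks and the fibroblast list 17681, so counts of their peaks come from lists of unlike length.

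Birds keep the nucleus in circulating red blood cells, whose chromatin becomes condensed and largely silent as the cell matures. ATAC-seq marks the DNA that stays open in such a nucleus, because the Tn5 transposase inserts sequencing adapters only where DNA is not covered. Promoters, enhancers and insulators are the usual open sites, and sites that stay open in a mature red cell stand out against a closed genome. The red cells of the early embryo and of the later bird belong to successive waves of blood formation with different globin genes. To which wave the cells of embryonic day 10 belong was not examined here.

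Each list is 1 set of calls for a cell type, with no read counts, so depth is unknown and no value has a replicate error. The intervals given below are 95% intervals for counting error over peaks, and since neighbouring peaks are not independent they understate the error of a cell type. No test between the cell types was possible. The fold enrichment of a peak is the authors' value, the pileup at the summit over the caller's local background, and was used only for the order of peaks within a list.

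Most sites of the hen were also open in the embryo. Of the adult peaks 7137 were kept and 4258 were gained, which is 37.4% of the list (Wilson interval 36.5% to 38.3%). Of the embryonic peaks 7174 were kept and 5384 were lost, which is 42.9% (42.0% to 43.7%). Measured in bases the turnover was smaller: gained peaks made up 762 kb or 27.8% of the adult sequence, and lost peaks made up 1086 kb or 32.8% of the embryonic sequence. The numbers of kept peaks differ between the lists because 175 adult peaks each spanned several embryonic peaks, up to 4, and 147 embryonic peaks each spanned several adult peaks, up to 3.

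The classes did not hinge on the smallest overlaps. Only 7 kept adult peaks overlapped the embryonic list by 10 bp or less, and 53 by 50 bp or less. On the other side of the rule, 63 gained peaks (1.48%) lay less than 100 bp from an embryonic peak and 99 lost peaks (1.84%) less than 100 bp from an adult peak. The median distance to the nearest peak of the other list was 9639 bp for gained peaks and 16819 bp for lost peaks. Beyond 1 Mb from any embryonic peak lay 33 gained peaks, 20 of them on chromosome 1, and 1 lost peak lay as far from any adult peak.

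Kept sites were the stronger ones in both lists. A rank percentile was given to each peak by its fold enrichment within its own list, with 100 for the strongest. In the adult list the median percentile was 29.4 for gained peaks and 63.8 for kept peaks. In the embryonic list it was 31.5 for lost peaks and 65.3 for kept peaks. Of the 100 strongest adult peaks 17 were gained, and of the 100 strongest embryonic peaks 5 were lost. The kept share climbed through the deciles of the adult list to 93.1% (91.4% to 94.4%) in the strongest decile, with 31.0% in the weakest. The embryonic list gave 91.0% (89.3% to 92.5%) in the strongest decile and 25.6% in the weakest. In both lists the kept share was higher in every decile than in the one below it. With 1 list per cell type, how much of this trend another list of the same cells would show is unknown.

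**Figure D1:**
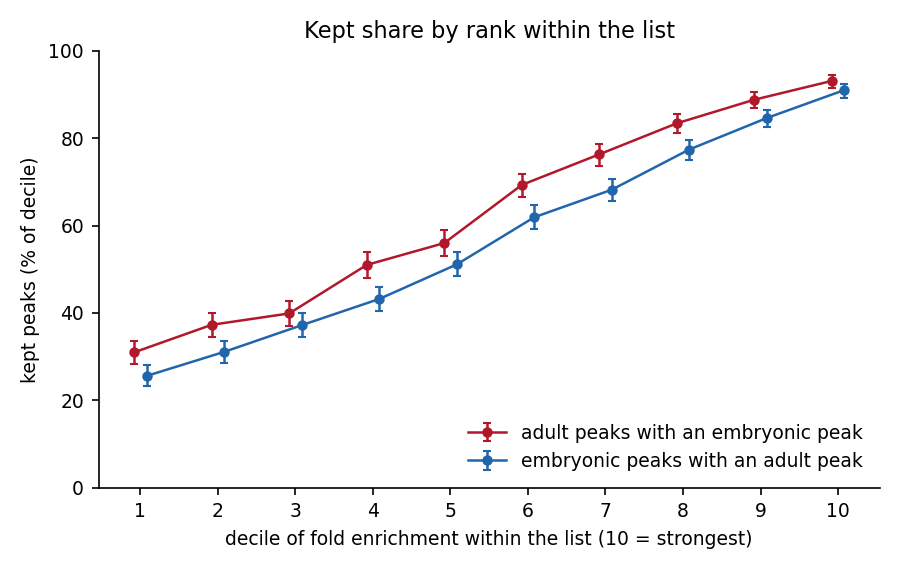
Kept peaks as a percentage of each decile of fold enrichment, for adult peaks (red) and embryonic peaks (blue); bars are 95% Wilson intervals. Both curves climb at every decile, and the adult curve lies above the embryonic one, at 93.1% against 91.0% in the strongest decile.

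Gained and lost sites were also narrower. Gained peaks had a median width of 143.5 bp (interval 141 to 146 bp) and kept adult peaks 240 bp (236 to 243 bp). Lost peaks had a median of 175 bp (172 to 178 bp) and kept embryonic peaks 279 bp (274 to 282 bp). Width and fold enrichment went together within the adult list (Spearman's rho 0.544 over 11395 peaks) and within the embryonic list (0.603 over 12558 peaks), both measures coming from the same pileup. The difference was present at equal rank. In the strongest decile the median was 168 bp for the 79 gained peaks and 334 bp for the kept adult peaks. In the weakest adult decile it was 127 bp for gained and 150 bp for kept peaks. In the strongest decile of the embryonic list it was 313 bp for the 113 lost peaks and 368 bp for kept ones. The strongest gained sites were thus narrow beside kept sites of their rank, more so than the strongest lost sites. Of adult peaks over 500 bp wide 88.7% were kept, and of embryonic peaks of that width 91.3% were kept. A wider peak meets the other list more easily under the overlap rule, so width is not independent of the classes. Where 100 bp around the summits set the classes, the difference in median width was -93 bp for gained minus kept peaks. For lost minus kept peaks it was then -99.5 bp.

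**Figure D2:**
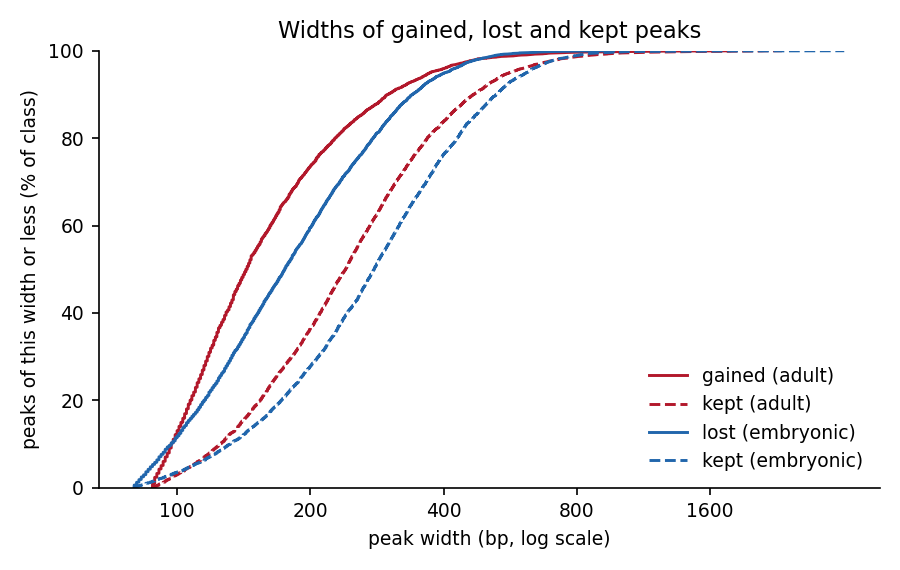
Cumulative share of peaks by width (log scale) for gained and kept peaks of the adult list (red) and lost and kept peaks of the embryonic list (blue). The solid curves of gained (median 143.5 bp) and lost peaks (175 bp) lie left of the dashed curves of kept peaks.

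Positions and widths were compared within kept pairs. In 6682 cases a single adult peak met a single embryonic peak. The 2 peaks of such a pair overlap by definition, so the distance between their summits is bounded by their widths. Median widths in the pairs were 239 bp in the adult and 279 bp in the embryonic list. Closeness of the summits thus follows in part from the rule. The summits of such a pair lay a median of 25 bp apart, and in 74.4% of pairs they lay within 50 bp, while 164 pairs had summits more than 200 bp apart. The adult peak was the narrower in 4337 pairs (64.9%), with a median difference in width, adult minus embryonic, of -32 bp (interval -34 to -29 bp). Adult peaks were narrower over the whole lists too, with median widths of 199 bp in the adult and 229 bp in the embryonic list. A difference in this direction was thus not particular to the pairs. Fold enrichments of the 2 lists rose together over the pairs (Spearman's rho 0.611 over 6682 pairs), and so did widths (0.571). Of the 100 pairs that ranked highest in the adult list 33 were also among the 100 highest in the embryonic list, and of the highest 1000 it was 544.

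The 5 strongest pairs common to both cell types had summits close together. By the better of the worse ranks, the leading pair lay on chromosome 2 from 86463194 to 86463340, with rank 3 in the adult and rank 5 in the embryonic list. The next lay on chromosome 31 from 3132671 to 3132957, with rank 6 in the adult and rank 1 in the embryonic list. The third lay on chromosome 2 from 65121368 to 65121556, with rank 2 in the adult and rank 31 in the embryonic list. The other two lay on chromosome 24 from 6053169 to 6053328 and on chromosome 2 from 34016651 to 34017297. The 5 pairs had summits 0 to 4 bp apart, and each also overlapped an HD3 erythroblast peak and a fibroblast peak. These 5 pairs were thus called in all 4 cell types. Such overlap was usual among strong kept sites. Of kept adult peaks in the strongest decile, 94.7% overlapped an HD3 erythroblast peak and 89.8% a fibroblast peak.

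Some kept sites stood at opposite ends of the lists. Ranks were taken here among the 6682 pairs, so that both lists have the same length. In 32 pairs the adult peak was in the upper 25% and the embryonic peak in the lower 25%, and in 106 pairs it was the other way round. Of the 32 pairs high in the adult list 13 (40.6%, interval 25.5% to 57.7%) overlapped an HD3 erythroblast peak. Of the 106 pairs high in the embryonic list 88 did (83.0%, 74.7% to 89.0%), with 67.4% over all pairs. The fibroblast list gave the same order. It was overlapped by 13 of the 32 pairs (40.6%, 25.5% to 57.7%) and 73 of the 106 pairs (68.9%, 59.5% to 76.9%), with 55.6% over all pairs. The pairs named next are those with the largest difference in rank percentile over the whole lists, and their ranks are given among the pairs. Toward the adult list, chromosome 25 from 491696 to 492084 had rank 1246 in the adult and 6664 in the embryonic list. On chromosome 6 a peak from 20852555 to 20852738 had rank 67 in the adult and 6342 in the embryonic list. Chromosome 30 from 1366352 to 1366738, chromosome 2 from 120211326 to 120211548 and chromosome 4 from 1789928 to 1790252 were the others. None of these 5 overlapped an HD3 erythroblast peak. Those on chromosomes 25, 6 and 30 overlapped a fibroblast peak, and those on chromosomes 2 and 4 did not.

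Toward the embryonic list, by the same measure, chromosome 1 from 88475194 to 88475447 had rank 6631 of the pairs in the adult and 62 in the embryonic list. The other four lay close together in pairs. On chromosome 19 they ran from 183898 to 184112 and from 186070 to 186325, and on chromosome 16 from 1799118 to 1799291 and from 1830415 to 1830819. The first of those on chromosome 16 had rank 6527 in the adult and rank 4 in the embryonic list. The pairs on chromosomes 1 and 16 overlapped an HD3 erythroblast peak, and those on chromosome 19 did not. All of them overlapped a fibroblast peak except that on chromosome 16 from 1830415 to 1830819. Chromosome 16 carries the major histocompatibility complex and the ribosomal RNA genes of the chicken.

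Peaks without a counterpart differed in their relation to the erythroblast line. Among gained peaks 199 of 4258 (4.67%, interval 4.08% to 5.35%) overlapped an HD3 erythroblast peak. Among lost peaks 1950 of 5384 did (36.2%, 34.9% to 37.5%). Kept peaks overlapped that list in 66.6% in the adult and 66.8% in the embryonic list. Over all peaks the shares were 43.5% in the adult and 53.7% in the embryonic list. The gap between gained and lost was present at equal rank. In the strongest decile 9 of 79 gained peaks (11.4%, 6.11% to 20.3%) and 79 of 113 lost peaks (69.9%, 60.9% to 77.6%) had an HD3 erythroblast peak. In the lower 50% of each list the shares were 3.71% of gained and 28.6% of lost peaks. The difference of -31.5 percentage points, gained minus lost, kept its sign in all 6 alternatives run for it. Sites of the embryo that were missing in the hen were thus shared with the erythroblast line more often than sites of the hen that were missing in the embryo.

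Fibroblasts gave the opposite order. Of gained peaks 1375 (32.3%, 30.9% to 33.7%) overlapped a fibroblast peak, and of lost peaks 1125 did (20.9%, 19.8% to 22.0%). Kept peaks overlapped the fibroblast list in 55.3% in the adult and 55.7% in the embryonic list. Over all peaks the shares were 46.7% in the adult and 40.8% in the embryonic list. In the strongest decile the shares were 62.0% of gained (51.0% to 71.9%) and 34.5% of lost peaks (26.4% to 43.7%). Without dense windows, which are 100 kb windows with at least 10 peaks in the adult or the embryonic list, the difference between gained and lost fell to 6.26 percentage points, against 11.4 in the whole lists. Taking both lists together, 2746 gained peaks (64.5%) and 3076 lost peaks (57.1%) were in neither. A fibroblast peak and no HD3 erythroblast peak was found at 1313 gained (30.8%) and 358 lost peaks (6.65%). An HD3 erythroblast peak and no fibroblast peak was found at 137 gained (3.22%) and 1183 lost peaks (22.0%).

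**Figure D3:**
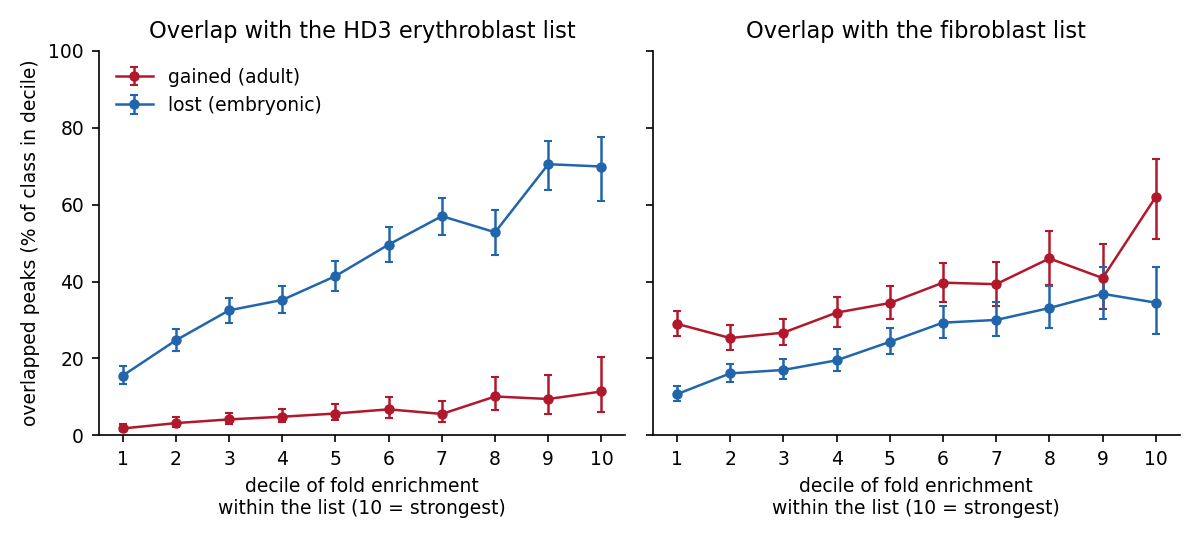
Share of gained peaks (red) and lost peaks (blue) that overlap the HD3 erythroblast list (left) and the fibroblast list (right), by decile of fold enrichment within the list; bars are 95% Wilson intervals. On the left the gained peaks lie below the lost peaks in every decile (11.4% of gained and 69.9% of lost peaks in the strongest), and on the right they lie above (62.0% of gained and 34.5% of lost peaks).

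Gained peaks of the strongest decile overlapped a fibroblast peak in 62.0%, and kept adult peaks of that decile in 89.8%. The strongest gained site was the first peak of the whole adult list, on chromosome 1 from 172115556 to 172115727, with a fold enrichment of 81.5. The nearest embryonic peak was 153381 bp away. It was followed by chromosome 1 from 33414231 to 33414431 with rank 4, chromosome 3 from 6969512 to 6969812 with rank 8, chromosome 20 from 516502 to 516599 with rank 9 and chromosome W from 331086 to 331208 with rank 13. All 5 overlapped a fibroblast peak, and the 2 on chromosome 1 also overlapped an HD3 erythroblast peak. These sites were thus called in other cell types of the series and not in the embryonic red cells.

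Lost peaks of the strongest decile overlapped an HD3 erythroblast peak in 69.9%, and kept embryonic peaks of that decile in 93.2%. The strongest lost site lay on chromosome 19 from 33976 to 34201, with a fold enrichment of 34.4 and rank 14, only 34 bp from an adult peak. The next on chromosome 16 from 1803481 to 1803661 had rank 34 and lay 185 bp from an adult peak, and that on chromosome 14 from 113164 to 113310 had rank 43 and lay 689 bp from one. Sites with no adult peak nearby were on chromosome 12 from 8776965 to 8777190, with rank 77 and the nearest adult peak 47028 bp away, and on chromosome 3 from 96812775 to 96813150, with rank 94 and a distance of 23893 bp. All but the last overlapped an HD3 erythroblast peak. Of the 5 strongest lost sites, 3 therefore lay within 1 kb of an adult site, as did 988 of all 5384 lost peaks (18.4%). The site on chromosome 14 lay between 100000 and 199999, where the adult list had 57 peaks.

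Gained and lost sites were spread unequally over the chromosomes. The chicken genome has a few large chromosomes and many small, gene-dense microchromosomes. On chromosomes 11 to 33 lay 44.4% of gained, 30.5% of lost and 37.9% of kept adult peaks. Within this group gained peaks outnumbered lost ones only on chromosomes 16, 22, 25, 27, 30, 31, 32 and 33. On the others lost peaks outnumbered gained ones. On chromosomes 1 to 5 lay 35.4% of gained, 46.6% of lost and 41.9% of kept adult peaks. In peaks per Mb, chromosomes 11 to 33 had 9.34 gained and 8.13 lost peaks, and chromosomes 1 to 5 had 2.48 gained and 4.12 lost peaks. Without dense windows the difference between gained and lost on chromosomes 11 to 33 was 6.51 percentage points, against 13.8 in the whole lists.

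The balance of gained and lost peaks differed from chromosome to chromosome. On 9 of 34 chromosomes gained peaks outnumbered lost ones, namely 16, 22, 25, 27, 30, 31, 32, 33 and W. Chromosome 33 had 331 gained and 79 lost peaks, and chromosome 27 had 241 gained and 56 lost peaks. Among chromosomes with at least 50 adult peaks, the gained share was highest on chromosome 31 with 73.8% (67.6% to 79.3%), on W with 69.5% (56.9% to 79.7%) and on chromosome 27 with 66.0% (61.0% to 70.7%). It was lowest on chromosome 21 with 9.28% (4.96% to 16.7%), on chromosome 17 with 10.6% and on chromosome 5 with 21.3%. Chromosomes 17 and 21 are microchromosomes as well, so the small chromosomes differed among themselves. Among chromosomes with at least 50 embryonic peaks, the lost share was highest on Z with 57.2% (53.6% to 60.8%), on chromosome 2 with 48.0% and on chromosome 7 with 46.3%. It was lowest on chromosome 30 with 19.8% (13.1% to 28.9%), on chromosome 16 with 23.2% and on chromosome 25 with 23.4%.

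**Figure D4:**
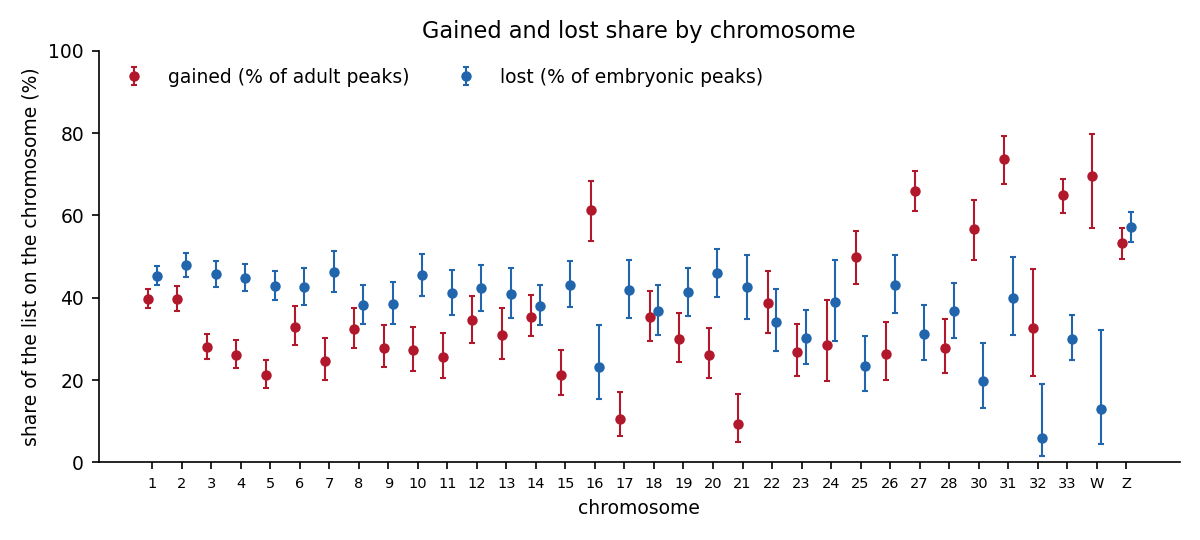
Gained peaks as a percentage of adult peaks (red) and lost peaks as a percentage of embryonic peaks (blue) on each chromosome; bars are 95% Wilson intervals. The gained share lies above the lost share on chromosomes such as 31 (73.8% gained) and 27 (66.0%), and below it on most others, down to 9.28% on chromosome 21.

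On chromosomes 1 to 10, gained sites lay more often near the chromosome ends. Within 1 Mb of the first position or of the last peak of any list lay 12.6% of gained peaks (11.2% to 14.1%) and 6.07% of kept adult peaks (5.38% to 6.85%). For lost peaks the share was 4.93% (4.25% to 5.72%) and for kept embryonic peaks 6.10% (5.41% to 6.87%). Without dense windows it was 8.80% of gained and 5.26% of kept adult peaks, and 4.38% of lost peaks.

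Gained sites lay closer to other sites of their list than kept sites did, and lost sites were spaced like kept ones. The median gap to the nearest peak of the same list was 2505 bp for gained and 7368 bp for kept adult peaks. It was 5668.5 bp for lost and 5446 bp for kept embryonic peaks. Another peak of the same list lay within 10 kb of 71.9% of gained peaks (70.5% to 73.2%) and of 60.8% of lost peaks (59.5% to 62.1%). The difference of 11.1 percentage points was 22.3 where only peaks with a −log10 q of at least 10 were used. It was 1.66 without dense windows, with an interval of -0.576 to 3.89, which includes 0. The windows were defined by their number of peaks, so part of that fall follows from the definition.

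Counted by windows of 100 kb, 54 windows held 10 or more gained peaks and 1 window held as many lost peaks. The 54 windows contained 777 gained peaks, 18.2% of all. They contained 1005 adult and 324 embryonic peaks, 155 HD3 erythroblast peaks and 927 fibroblast peaks. The windows were chosen by their gained peaks, so an excess of adult over embryonic peaks follows from the choice. At least 10 fibroblast peaks lay in 35 of them, at least 10 embryonic peaks in 12 and at least 10 HD3 erythroblast peaks in 1. Gained peaks in these windows overlapped a fibroblast peak in 46.8% (43.4% to 50.4%), and gained peaks elsewhere in 29.0% (27.6% to 30.6%). Their overlap with HD3 erythroblasts was 1.67%, and 5.34% elsewhere. Kept adult peaks differed in the same directions, so these differences were not particular to gained peaks. Kept adult peaks overlapped a fibroblast peak in 68.9% in these windows and in 54.8% elsewhere. For HD3 erythroblasts the shares of kept adult peaks were 43.9% and 67.3%. The 2 fullest windows had 43 gained peaks each. That on chromosome 14 from 100000 to 199999 had 57 adult, 18 embryonic and 51 fibroblast peaks. That on chromosome Z from 27300000 to 27399999 had 44 adult, 3 embryonic and 11 fibroblast peaks. A window on chromosome 2 from 142700000 to 142799999 came next with 35 gained peaks, and held 39 adult, 4 embryonic and 43 fibroblast peaks. The windows on chromosomes 14 and 2 thus held about as many fibroblast as adult peaks, and that on Z did not. The fibroblast list is the longer one, with 17681 against 11395 peaks.

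Neighbouring peaks were also counted in runs. A run is a stretch of consecutive peaks of a list that are all of a class. By this definition, a peak of the other list can lie inside a gained or lost run only between its peaks. After a gained peak the next adult peak was gained as well in 59.7% of cases, where gained peaks made up 37.4% of the list. After a lost peak the next embryonic peak was lost in 50.9%, where lost peaks made up 42.9%. Runs of 10 or more held 1006 gained peaks (23.6%) and 38.7% of kept adult peaks. In the embryonic list they held 201 lost peaks (3.73%) and 8.61% of kept peaks. Long runs were thus more frequent in the adult list for both classes, and in each list for kept peaks, which are also the larger class. After a kept adult peak the next adult peak was kept in 76.1% of cases, where kept peaks made up 62.6% of the list. After a kept embryonic peak the next was kept in 63.1%, where kept peaks made up 57.1%. The longest gained run had 39 peaks on chromosome 27 from 571415 to 1006516, with no embryonic and no HD3 erythroblast peak inside and 126 fibroblast peaks. The third longest had 29 peaks on chromosome 25 from 1486307 to 1803656, with 3 embryonic, 2 HD3 erythroblast and 4 fibroblast peaks inside.

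The second longest gained run lay on chromosome Z from 27325417 to 27397005, with 38 peaks in 71.6 kb. Inside it lay no embryonic peak, no HD3 erythroblast peak and 3 fibroblast peaks. The peaks had a median rank percentile of 32.1 and a median width of 148 bp. Over all gained peaks these medians were 29.4 and 143.5 bp. Neighbouring summits were not evenly spaced, with distances of 405 to 6729 bp and a median of 1773 bp. Over all summit pairs, distances recurred near 2200 bp and its multiples, a feature looked for after the run had been seen. Of the distances between summits up to 10 kb, counted in steps of 100 bp, 11 fell at 2200 to 2300 bp, 8 at 4400 to 4500 bp, 10 at 6600 to 6700 bp and 11 at 8800 to 8900 bp, where the median step held 1. The next fullest steps, at 400 to 500 and 4900 to 5000 bp, held 7 each. Of the 38 summits 26 had another summit 2100 to 2300 bp away. In the window on chromosome 14 this held for 10 of 57 summits and in that on chromosome 2 for 8 of 39. The range surrounds a fullest step of the run on Z, so these counts favour that run. They cannot show whether the other windows have a spacing of their own.

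The chicken Z chromosome is known for the MHM (male hypermethylated) region, an array of tandem repeats on its short arm that is methylated in males and transcribed in females. Whether the run lies within that array was not checked, since no annotation of the build of the lists was used. Between 27 and 28 Mb on Z there were 85 adult peaks, of which 72 were gained, and 20 embryonic peaks, of which 8 were lost.

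The far end of Z held sites of both classes. Beyond 73 Mb lay 171 gained peaks among 210 adult peaks (81.4%) and 105 lost peaks among 144 embryonic peaks (72.9%). The HD3 erythroblast list had 35 of its 11763 peaks there and the fibroblast list 1046 of its 17681. Of the gained peaks there 102 overlapped a fibroblast peak. The longest run of lost peaks was in this part, with 25 peaks from 77722847 to 78008577, among which 4 adult and 39 fibroblast peaks lay. Up to 27 Mb on Z the gained share was 29.0% and the lost share 49.6%. From 28 to 73 Mb they were 31.4% and 56.9%. The lost share was thus above the 42.9% of the list in these parts, and the gained share was below its 37.4%. Over the whole of Z the gained share was 53.3% and the lost share 57.2%, so most peaks of either list had no counterpart on this chromosome.

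The other long runs of lost peaks were loose. On chromosome 15 a run of 15 lost peaks stretched over 737 kb from 2134615 to 2871356, with no adult peak inside and 12 HD3 erythroblast peaks. On chromosome 12 a run of 14 lost peaks stretched over 1699 kb from 12229264 to 13927940, with no adult peak inside and 19 HD3 erythroblast peaks. In the first 6 of 15 lost peaks and in the second 9 of 14 overlapped an HD3 erythroblast peak. In these long stretches the hen's list had no peak, and without read depth they cannot be called closed in the hen.

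Chromosome W, which females alone carry, had 59 adult and 23 embryonic peaks. Of the adult peaks 41 were gained, and of the embryonic peaks 3 were lost. Of the 17 gained peaks among the 100 strongest of the adult list, 3 lay on W.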

How the data were processed

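ATAC-seq was run on 2 samples of each of 4 chicken cell types. Nuclei came from 150000 cells, with 30 min of Tn5 and 10 PCR cycles, per the labels' protocols. The files are 1 peak list per cell type in narrowPeak layout, so no single sample could be examined. The submitters' processing notes name Bowtie2 2.3.5, SAMtools 1.9, MACS2 2.1.2 and the build GRCg6a, without saying which step used what. How the 2 samples became 1 list is not given in the sources used here, and neither is any correction for the Tn5 offset. Peak names begin with aRBC2CLEANED and eRBC2CLEANED, and what the digit and the word stand for is not stated. The deposited fold enrichment is a ratio at the summit, the −log10 p and −log10 q in the deposited lists are the caller's, and the deposited display score was not used. Every −log10 q was at least 2.19 in the adult and 2.04 in the embryonic list. Read depth is unknown.

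Positions are written from 1, on GRCg6a. Overlaps were counted in Python 3.11.15 with NumPy 2.4.6 and pandas 2.3.3, and all 6 counts equalled those of bedtools 2.31.1. Shares have Wilson intervals, medians have binomial order-statistic intervals and differences have square-and-add intervals made from these (SciPy 1.17.1). The code was tested on simulated lists. The chromosome length was taken as the end of the last peak of any list. The gene table at hand was of another assembly, GRCg7b, and was not used, so no peak was given a gene or a sequence, and the planned gene markers were not run. Named peaks follow a rule: the 5 strongest gained and lost peaks, 5 kept pairs by the worse rank percentile, 5 with the largest rise and 5 with the largest fall in percentile, the 3 longest runs of gained and of lost peaks, and the 3 highest and lowest chromosomes with at least 50 peaks. The windows described were chosen after their values were seen. The comparison, its classes and these rules were chosen with earlier results of these data known. Figures were drawn with matplotlib 3.10.9.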

Additional observations from a re-analysis of the deposited data

Results flagged for a closer look

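Peaks are numbered in their names, which served no comparison here, and the numbering has gaps. In the adult list 4577 of 15972 numbers (28.7%) were missing, and in the embryonic list 2330 of 14888 (15.7%). Among gained peaks 46.1% stood next to a missing number, and among kept adult peaks 33.5%. Among lost peaks it was 27.9%, and among kept embryonic peaks 27.7%. How the gaps arose is not stated in the sources used here, and their part in the classes was not tested.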

How the results depend on the processing

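No paired analysis was possible because the lists carry no replicate numbers, and with 1 list a cell type none of its samples could be dropped. Of 68 alternative values for 12 results, 40 stayed within the result's counting interval (for peak numbers, within 1.5 times) and 28 moved beyond it. Among the differences 0 changed sign, while peak numbers and kept shares have no sign that could change. Beyond the removal of peaks that the alternatives themselves make, the cause of the moves was not tested. With no depth and no replicate list, no site can be called closed where it has no peak.

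Where −log10 q was at least 10, the kept share was 68.4% of adult and 59.2% of embryonic peaks. The median width of lost minus kept peaks was then -75 bp and the median rank percentile -32.9 for gained and -29.3 for lost minus kept peaks. Gained minus lost, the share with a peak within 10 kb was 22.3 points, with an HD3 erythroblast peak -22.1 and with a fibroblast peak 13.9. In lists of equal length (11395 peaks by −log10 p) the kept shares were 60.9% of adult and 61.0% of embryonic peaks, which equal length brings together by construction. Lost minus kept was then -90 bp in width and -31.4 in percentile, and gained minus lost was 15.1 points within 10 kb and 9.1 for fibroblasts. With 100 bp around the summits the kept shares were 60.2% of adult and 54.6% of embryonic peaks, and gained minus lost for HD3 erythroblasts was -29.9. With −log10 p for the rank, lost minus kept was -37.7.

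Without 161 dense windows the kept shares were 68.2% of adult and 55.7% of embryonic peaks, the width of lost minus kept peaks -110 bp, and the percentile -36.3 for gained and -35.5 for lost minus kept peaks. Gained minus lost was then 6.51 points for chromosomes 11 to 33, 1.66 within 10 kb and 6.26 for fibroblasts. Removal of these windows for the share near chromosome ends, 8.80% of gained peaks, was added after the data had been seen. Without chromosomes Z and W 63.8% of adult peaks were kept, and gained minus lost on chromosomes 11 to 33 was 15.9 points.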
